A study of Homo sapiens with 28 samples.

Results

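The response of LNCaP cells to the synthetic androgen R1881 was measured while SNX631 was present throughout. LNCaP is an established human line from a prostate cancer that responds to androgen, and SNX631 inhibits the Mediator kinases CDK8 and CDK19. The comparison took every library that the labels place at 72 h with SNX631, which was 8 of the 28 libraries of the series: 4 with R1881 at 1 nM together with SNX631 at 500 nM, and 4 with SNX631 at 500 nM alone. The other groups of the same 72 h experiment, 4 libraries with DMSO vehicle and 4 with R1881 at 1 nM alone, gave the androgen effect without inhibitor, which is used to show where the effect under SNX631 differed from it, and they entered the same fit, so they share its filter and estimate of spread. All 16 libraries came from 1 cell line, kept before treatment in charcoal-stripped serum, which is poor in steroid hormones. DMSO is recorded for the vehicle group, and no DMSO content is recorded for the other groups. Total RNA was made into directional libraries and sequenced, and the values are counts of reads per gene. A separate 24 h experiment of 12 libraries with R1881 at 0.1 nM and Senexin B, another CDK8 and CDK19 inhibitor, differed in time, dose and inhibitor at once.

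Androgens act through a nuclear hormone receptor that enters the nucleus on binding hormone and attaches to DNA at response elements in promoters and enhancers, where it recruits coactivators and Mediator. Mediator links such DNA-bound factors to RNA polymerase II, and its kinase module, which holds CDK8 or CDK19 with a cyclin and further subunits, binds Mediator reversibly. In luminal prostate cells androgens are known for driving secretory genes, among them KLK3, which encodes prostate-specific antigen (PSA), and lipid synthesis, and for holding down a set of other genes. In LNCaP cells androgen also supports growth.

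KLK3 and KLK2 are neighbours on chromosome 19 that encode related secreted serine proteases, and both carry a match to the androgen response element close to the transcription start. Their promoters are shown because they are the best known targets and because the R1881 effect on both differed with SNX631. The windows cover the 250 bases before the RefSeq start on GRCh38.p14, which is chr19:50854665-50854914 on the plus strand for KLK3 and chr19:50873189-50873438 on the plus strand for KLK2. In GENCODE 29 the gene KLK3 (ENSG00000142515.16) runs from 50854915 to 50860764 and KLK2 (ENSG00000167751.13) from 50861568 to 50880567, so the RefSeq start of KLK2 lies inside the longer GENCODE gene. The 2 genes are related in sequence, and some reads can be shared between them. Capitals mark the best match to the element, which is AGAACA and TGTTCT with 3 free letters between them, searched on both strands with up to 3 mismatches in its 12 fixed letters.
KLK3: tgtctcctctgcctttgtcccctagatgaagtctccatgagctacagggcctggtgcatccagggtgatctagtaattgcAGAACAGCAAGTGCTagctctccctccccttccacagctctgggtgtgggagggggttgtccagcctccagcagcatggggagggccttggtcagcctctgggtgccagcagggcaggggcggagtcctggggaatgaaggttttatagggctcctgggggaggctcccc
KLK2: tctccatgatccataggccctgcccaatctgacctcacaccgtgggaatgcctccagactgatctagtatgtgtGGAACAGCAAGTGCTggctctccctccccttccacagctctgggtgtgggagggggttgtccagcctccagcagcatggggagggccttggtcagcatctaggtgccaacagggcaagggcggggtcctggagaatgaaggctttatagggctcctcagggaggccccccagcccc
The match began 170 bases before the start with 2 mismatches in KLK3 and 176 bases before it with 3 mismatches in KLK2. Set against each other without gaps, the windows were identical at 185 of 244 bases, or 75.8%. A match of this quality is common: it occurred in 9.34% of 27305 RefSeq promoter windows, in 4.91% of the 10968 genes tested that had a window, in 68 of 1147 called higher (5.93%) and in 80 of 1207 called lower (6.63%).

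Levels are given as normalized CPM, the usual depth-scaled count, with each library scaled by TMM, and are not corrected for gene length, so they are compared between groups and not between genes. KLK3 stood at 0.7, 1.69, 1.36 and 1.79 CPM in the 4 libraries with SNX631 alone and at 48.4, 46.1, 45.7 and 44.5 CPM in the 4 with R1881 and SNX631. KLK2 stood at 2.01, 1.38, 1.92 and 1.79 CPM against 84.3, 84.4, 93 and 99.9 CPM. The groups did not overlap for either gene, and the exact permutation test on log2 CPM gave p = 0.0286 for both (two-sided, 4 against 4), the smallest p that 70 arrangements allow. The log2 fold change was 5.04 (SE 0.19, adjusted p = 6.16e-32) for KLK3 and 5.67 (SE 0.17, adjusted p = 6.78e-36) for KLK2. Adjusted p values here and below are from edgeR's quasi-likelihood test with Benjamini-Hochberg adjustment over all genes tested.

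The starting levels of both kallikreins with and without the inhibitor differed by less than the SD of the SNX631 group, at 1.38 ± 0.492 CPM under SNX631 and 1.44 ± 0.171 CPM in vehicle for KLK3 and at 1.78 ± 0.277 and 1.94 ± 0.105 CPM for KLK2 (SD, n = 4 each). With R1881 alone KLK3 reached 138 ± 7.59 CPM and KLK2 reached 341 ± 10.4 CPM, against 46.2 ± 1.62 and 90.4 ± 7.52 CPM with both agents. The difference between the androgen effects with and without SNX631, tested as an interaction in the same fit, was -1.53 log2 units for KLK3 (SE 0.26, adjusted p = 6.2e-05) and -1.78 for KLK2 (SE 0.24, adjusted p = 1.53e-06). CHRNA2, a nicotinic acetylcholine receptor subunit gene, also ended lower with both agents (36.8, 36.8, 39 and 37 CPM) than with R1881 alone (88.4 ± 1.58 CPM). Its starting mean was lower too, at 0.412 ± 0.0789 CPM under SNX631 and 0.87 ± 0.485 CPM in vehicle, but the libraries overlapped (0.341 to 0.525 and 0.39 to 1.54 CPM). The difference between the 2 effects on CHRNA2 did not pass the test (-0.20 log2, SE 0.38, adjusted p = 0.84). In the 24 h experiment the R1881 effect under Senexin B was 4.91 for KLK3, 6.49 for KLK2 and 8.52 for CHRNA2 on the log2 scale, at another dose, time and inhibitor.

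**Figure D1:**
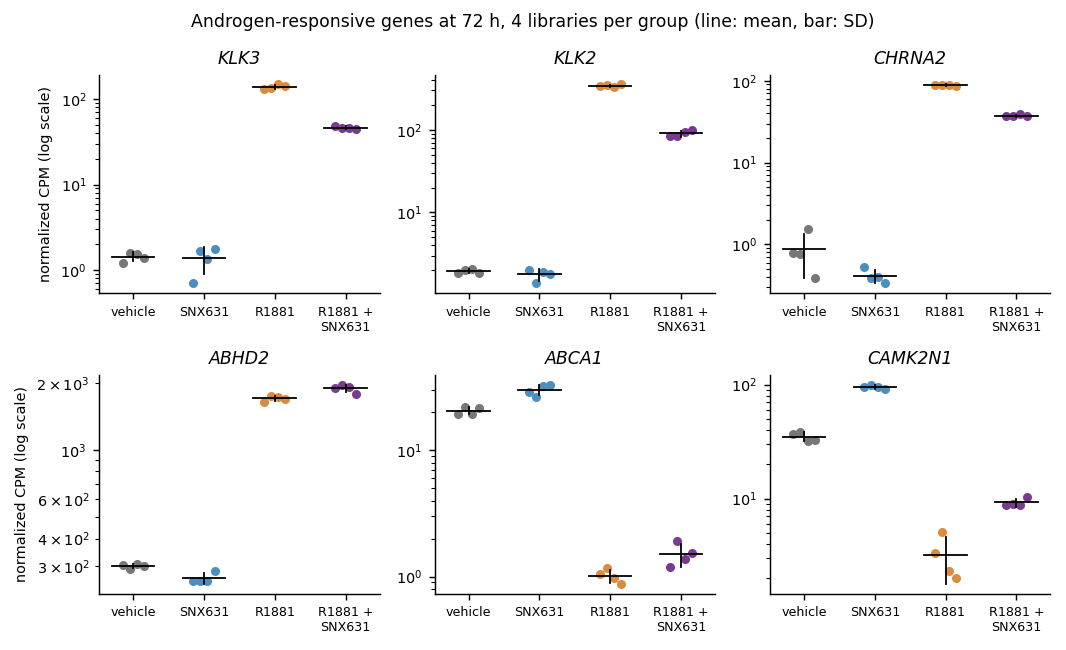
Normalized CPM on a log axis for 6 androgen-responsive genes in the 4 groups of the 72 h experiment, with 1 point per library, a line at the mean and a bar of 1 SD. The libraries of KLK3 and KLK2 overlap between vehicle and SNX631, and both genes end lower with both agents than with R1881 alone, whereas ABHD2 ends at 1886 CPM with both agents and 1701 CPM with R1881 alone.

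Some libraries stood apart from their groups over all genes. Replicate 4 of R1881 with SNX631 differed from the other 3 by a chi-square per degree of freedom of 1.83 to 2.29, against 1.20 to 1.33 among those 3. Without it 3467 genes were called for the R1881 effect under SNX631 instead of 3543 (called as defined next) and 184 differences instead of 192. Replicate 1 of R1881 alone differed from its group by 1.49 to 1.87, against 1.21 to 1.28 among the other 3. Without that library the counts were 3587 genes and 198 differences.

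Over all genes, a gene was called at a false discovery rate (FDR, the adjusted p) under 0.01 together with a fold change over 1.5. By this rule 22.0% of 16074 genes tested were called under SNX631, 10.1% higher and 12.0% lower with R1881. With library totals in place of TMM the split was 1311 higher and 2435 lower instead of 1619 and 1924, and the median log2 fold change of all genes moved from -0.01 to -0.12. Most changes were moderate: the median was 0.98 on the log2 scale among the genes called higher and -0.96 among those called lower. Changes past 2 log2 units were seen for 241 genes upward and 193 downward, and past 4 units for 75 upward and 15 downward. The genes called higher took 6.59% of all counts with SNX631 alone and 14.6% with both agents, and the genes called lower took 6.84% and 3.32%.

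The genes with the highest fold changes were near silent until R1881 was added. ALPK2, which encodes an atypical kinase, had no count in any library with SNX631 alone and 12.9, 14.1, 14.6 and 12.1 CPM with both agents. STEAP4, a metalloreductase gene, likewise had no count and then 7.35, 10, 8.39 and 8.35 CPM. Against a floor of 3 counts per library these are at least 54.5-fold higher for ALPK2 and at least 34.5-fold higher for STEAP4. SLC38A4, an amino acid transporter gene, had 2 counts over the 4 libraries with SNX631 alone and 751 with both agents, a ratio of 334 after scaling (95% exact counting interval 92.2 to 2764). CTNNA2, an alpha-catenin gene of neurons, had 3 and 878 counts, a ratio of 260 (88.8 to 1265). Intervals and floors cover counting error only.

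Regulators and enzymes were next by point estimate, and the order among genes with no or few counts is uncertain. SNAI2, a zinc finger repressor known from epithelial-mesenchymal transition, stood at 0.262, 0.231, 0.4 and 0.0852 CPM with SNX631 alone and at 27.7, 26.1, 24.1 and 25.7 CPM with both agents. ST6GALNAC1, a sialyltransferase of mucin-type glycans, was found between 0 and 0.426 CPM and then between 19.6 and 23.3 CPM. TBX15, a T-box transcription factor gene, had counts in 1 of the 4 libraries with SNX631 alone (0.4 CPM) and 8.46 to 10.4 CPM in the 4 with both. MOGAT2, an acyltransferase of triglyceride synthesis, went from 0.0769 to 0.262 CPM up to 10.8 to 14.3 CPM. HPGD, which encodes the dehydrogenase that inactivates prostaglandins, went from 0.0852 to 0.24 CPM up to 10.3 to 11.8 CPM. None of these groups overlapped, but the genes were picked for their fold changes in these libraries, so this adds no evidence. The adjusted p of the log2 fold changes was 1.33e-28 for SNAI2 (6.66, SE 0.43), 1.37e-27 for ST6GALNAC1 (6.61, SE 0.47), 6.71e-20 for TBX15 (6.38, SE 0.76), 1.38e-23 for MOGAT2 (6.26, SE 0.55) and 2.84e-25 for HPGD (6.22, SE 0.48).

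Abundant transcripts with large gains in CPM included genes of lipid, polyamine and sugar metabolism. ABHD2, a lipase gene, stood at 257, 258, 259 and 286 CPM with SNX631 alone and at 1899, 1945, 1918 and 1780 CPM with both agents (log2 fold change 2.83, SE 0.03, adjusted p = 3.08e-42). ODC1, the rate-limiting enzyme of polyamine synthesis, rose from 372, 380, 371 and 356 CPM to 1585, 1615, 1629 and 1632 CPM (2.13, SE 0.02, adjusted p = 2.49e-42). SORD, sorbitol dehydrogenase, rose from 335, 331, 330 and 330 CPM to 1358, 1346, 1353 and 1353 CPM (2.03, SE 0.02, adjusted p = 4.67e-43). The groups did not overlap for any of the 3 genes, which were picked for their gains in these libraries. The difference from the effect without inhibitor was 0.33 (SE 0.04, adjusted p = 1.12e-07) log2 units for ABHD2, past the FDR limit and under the fold limit, and 0.08 (SE 0.03) and 0.00 (SE 0.03) for ODC1 and SORD, which did not pass the FDR limit.

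Of the 10 genes with the lowest fold changes, 4 are given here by library. ABCA1, which exports cholesterol from cells, stood at 28.9, 26.7, 32.4 and 32.8 CPM with SNX631 alone and at 1.2, 1.93, 1.38 and 1.54 CPM with both agents (log2 fold change -4.30, SE 0.16, adjusted p = 5.2e-29). SI, which encodes the intestinal sucrase-isomaltase, fell from 69.1, 64.1, 62.9 and 58.8 CPM to 4.23, 4.43, 4.61 and 3.81 CPM (-3.89, SE 0.10, adjusted p = 9.48e-34). CAMK2N1, an inhibitor of calcium/calmodulin-dependent kinase II, fell from 94.4, 99.6, 96 and 92 CPM to 8.78, 9.07, 8.8 and 10.4 CPM (-3.37, SE 0.09, adjusted p = 1.24e-31). CCDC80, a secreted matrix protein gene, fell from 107 to 117 CPM down to 9.5 to 12.7 CPM. The 4 libraries of the compared groups did not overlap in any of these, which were picked for their fold changes in these libraries.

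The other strong decreases were at lower levels. SCUBE2, a secreted protein that helps release hedgehog ligands, fell by 4.35 (SE 0.39), and PTPRB, a receptor tyrosine phosphatase, by 4.10 (SE 0.27) on the log2 scale. NR4A2, an orphan nuclear receptor, fell by 3.81 (SE 0.25) from 7.46 to 10.9 CPM down to 0.559 to 0.879 CPM. LRRC31 fell by 3.80 (SE 0.30), IL1RN, the interleukin-1 receptor antagonist, by 3.58 (SE 0.25) and NATD1 by 3.41 (SE 0.20), with adjusted p from 3.98e-18 for LRRC31 to 7.2e-21 for NATD1. The largest losses in CPM were in GRB10, an adaptor of insulin receptor signalling, from 1538, 1513, 1545 and 1559 CPM to 363, 356, 355 and 353 CPM (-2.11, SE 0.02, adjusted p = 2.19e-43), and in CPNE3, from 1427 to 1489 CPM down to 576 to 608 CPM. SELENBP1, a selenium-binding protein gene, SESN3, a stress-response gene that restrains mTORC1, and FOLH1, which encodes prostate-specific membrane antigen, fell by 1.30, 1.54 and 0.91 log2 units.

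Genes on a list of androgen-induced genes were mostly higher under SNX631. The list was written from general knowledge with earlier results of these data known, so its share is a description. Of 113 members of that list tested, 91 were called higher and 1 lower, where 10.1% of all genes were called higher, and the list median was 1.77 (log2) against -0.01 for all genes tested. Without inhibitor the same list had 94 called higher and a median of 1.78. The metalloreductase STEAP4, the anion exchanger SLC26A3 and CHRNA2 had the highest point estimates of the list. STEAP4 and SLC26A3 had no count with SNX631 alone, so their rank is uncertain. SLC26A3 was at least 7.85-fold higher, from no count to 1.54 to 2.16 CPM. The member called lower was ACP3, which encodes prostatic acid phosphatase, at 15.5 to 21.6 CPM with SNX631 alone and 6.31 to 7.72 CPM with both agents (-1.40, SE 0.10, adjusted p = 2.03e-15). The difference between the effects with and without SNX631 was called larger for 2 members, HPGD and the leucine zipper gene TSC22D3. It was called smaller for 7, among them KLK3 and KLK2. Over all genes tested 0.373% were called larger and 0.821% smaller.

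Of 24 genes tested on the list of androgen-repressed genes, 17 were called lower, where 12.0% of all genes were, and 3 higher, a share near the 10.1% of all genes, with a median of -1.23. SI, CAMK2N1 and ROR2, a Wnt receptor, fell most, and ROR2 went from 2 to 2.64 CPM down to 0 to 0.44 CPM. The 3 that went against the name of the list were SOX9, a transcription factor of epithelial progenitors, LIFR, a cytokine receptor, and NRP1, a semaphorin and VEGF co-receptor. LIFR rose from 39.8 to 43.9 CPM up to 157 to 181 CPM (2.05, SE 0.05, adjusted p = 2.78e-31), and NRP1 from 73.9 to 77.6 CPM up to 194 to 212 CPM (1.45, SE 0.03, adjusted p = 1.47e-30). The UGT2B genes on this list, which encode enzymes that conjugate androgens, are near-identical copies whose reads can be shared, and their separate values are uncertain.

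**Figure D2:**
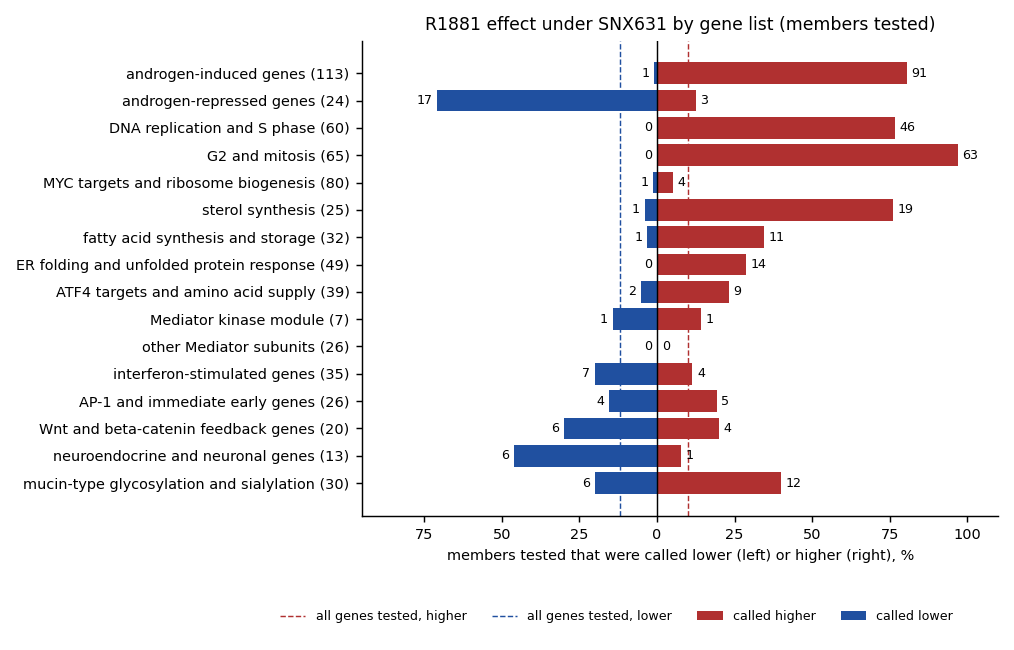
Share of tested members called higher (right, red) or lower (left, blue) with R1881 under SNX631 for 16 gene lists, with the number of members called beside each bar and the number tested in brackets. Dashed lines mark the shares over all genes tested, 10.1% higher and 12.0% lower; the androgen-induced, S phase, mitosis and sterol lists reach far beyond the upward line.

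Genes of the cell cycle rose with R1881 under SNX631, and 8 genes of each of its 2 lists rose by less than without the inhibitor. Of 60 genes of DNA replication and S phase, 46 were called higher and 0 lower, where 10.1% and 12.0% of all genes were. Their median was 0.82 (log2) against 1.01 without inhibitor. Of 65 genes of G2 and mitosis, 63 were called higher and 0 lower, with a median of 1.05 against 1.46. The median of all genes tested was -0.01 both under SNX631 and without it. The point estimate of the R1881 effect was smaller under SNX631 for 55 of the 60 and 64 of the 65, compared with 8285 of all 16074 genes. Those 8 members of each list were the called differences, where 0.821% of all genes tested were called smaller; for G2 and mitosis the count was 14 without replicate 2 of R1881 with SNX631. At an FDR under 0.01 with no limit on the fold, 20 S phase and 40 mitotic genes had the smaller effect and 0 the larger, against 659 smaller and 481 larger among all 16074 genes.

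The levels behind those differences were higher with SNX631, in the absence and in the presence of R1881. The mean CPM under SNX631 alone was above vehicle, and that with both agents above R1881 alone, for 60 of 60 S phase genes and 65 of 65 mitotic genes; over all genes tested the counts were 8090 and 7889 of 16074. CDC45, a subunit of the replicative helicase, stood at 5.79 CPM (mean, n = 4) in vehicle and 13.6, 15.5, 14.3 and 16 CPM with SNX631 alone. It reached 25.9 CPM with R1881 alone and 36.7, 40.8, 39.5 and 40.1 CPM with both, so its R1881 effect was 1.40 (SE 0.06) under SNX631 and 2.15 (SE 0.09) without it, a difference of -0.75 (SE 0.11, adjusted p = 4.04e-06). KIF20A, a mitotic kinesin, went from 21.1 to 22.1 CPM with SNX631 alone up to 56.1 to 59.6 CPM with both agents, and from 10.7 up to 45.6 CPM (means) without the inhibitor, a difference in effect of -0.67 (SE 0.09, adjusted p = 5.85e-07). The cell cycle transcription factors E2F8, E2F1 and MYBL2 rose by 1.54 (SE 0.10), 1.51 (SE 0.05) and 1.68 (SE 0.06), and their differences in effect, -0.33, -0.24 and -0.31, were not called.

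**Figure D3:**
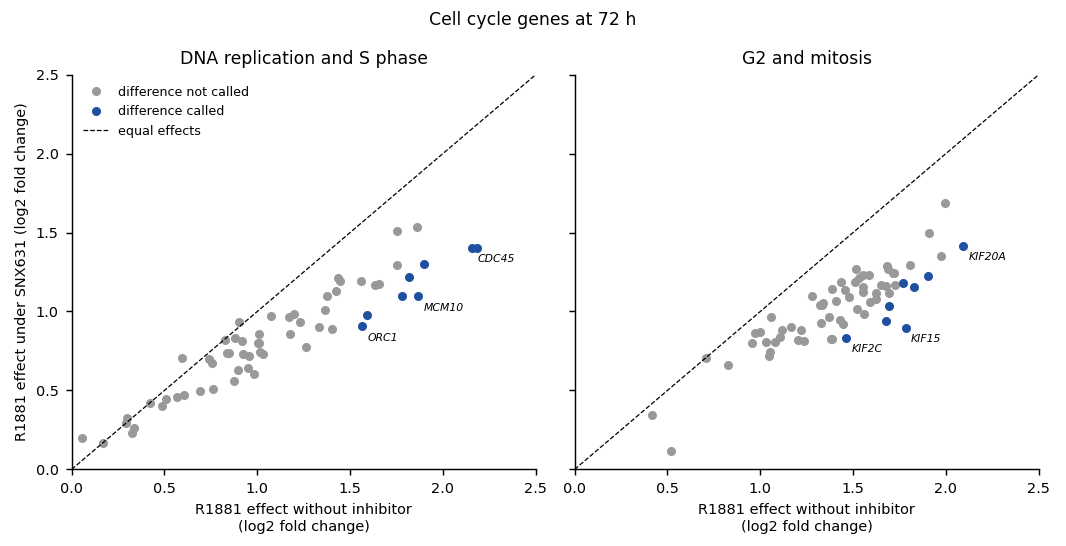
R1881 effect on 60 S phase genes (left) and 65 genes of G2 and mitosis (right), with the log2 fold change without inhibitor on the horizontal axis and under SNX631 on the vertical axis; blue points are the 8 genes of each list with a called difference. The points lie below the dashed line of equal effects for 55 and 64 genes, and all lie above 0 under SNX631.

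Most genes tested of sterol synthesis were called higher with R1881 under SNX631, and most of fatty acid synthesis and storage were not called. In sterol synthesis 19 of 25 were called higher and 1 lower, where 10.1% and 12.0% of all genes were. The list median was 0.68 against 0.66 without inhibitor. A difference in effect was called for 0 of the 25, near the 1.19% of all genes. TM7SF2, a sterol reductase, was the member called lower (-0.90, SE 0.03). In fatty acid synthesis and storage 11 of 32 were called higher, 1 lower and 20 neither (median 0.31), with the elongases ELOVL2 (4.25, SE 0.32) and ELOVL7 (2.87, SE 0.07) and the acyl-CoA synthetase ACSL3 (2.71, SE 0.03) at the top. ELOVL7 reached 81.5 to 89.9 CPM with both agents against a mean of 131 CPM with R1881 alone, a difference in effect of -0.64 (SE 0.09, adjusted p = 4.79e-06). MLXIPL, a carbohydrate-responsive transcription factor gene at 1.03 to 3.76 CPM, was called lower.

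On the list of endoplasmic reticulum folding and the unfolded protein response 14 of 49 were called higher and 0 lower, with a median of 0.35. Over all genes tested 10.1% were called higher and 12.0% lower. SEC11C, a signal peptidase subunit, rose from 61.4 to 70.1 CPM up to 261 to 278 CPM (2.02, SE 0.04, adjusted p = 7.49e-34), and the stress sensor ERN1 and the transcription factor CREB3L4 rose by 1.27 and 1.08. On the list of ATF4 targets and amino acid supply 9 of 39 were called higher and 2 lower, where 10.1% and 12.0% of all genes were. The amino acid transporters SLC43A1 (1.57, SE 0.05) and SLC1A5 (1.34, SE 0.05) and the lipoprotein receptor VLDLR (1.33, SE 0.06) rose, whereas SLC7A5, the large neutral amino acid transporter, fell by 1.52 (SE 0.12) and DDIT3, a stress-induced transcription factor, by 1.10 (SE 0.11). The median of this list was 0.45 under SNX631 and 0.15 without it, and the point estimate was lower under SNX631 for 6 of the 39 genes, against 8285 of all 16074. In this list 1 difference passed both limits (2 without replicate 3 of vehicle, replicate 1 of R1881 or replicate 4 of R1881 with SNX631). Over all genes tested 1.19% of differences passed both. Of 80 MYC targets and genes of ribosome biogenesis, 4 were called higher and 1 lower, or 6.25%, where 22.0% of all genes were called. The median was 0.24, and the 4 became 2 without replicate 4 of SNX631, or replicate 1 or 4 of R1881 with SNX631. ODC1 and LDHA, lactate dehydrogenase A (1.30, SE 0.02), were among those called higher, and the helicase DDX18 fell by 1.08 (SE 0.04). SRM, spermidine synthase, was just past the fold limit at 0.59 (SE 0.03) and was lost in 5 of the settings that left out a library.

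Of 30 genes tested on the list of mucin-type glycosylation and sialylation, 12 were called higher and 6 lower, where 10.1% and 12.0% of all genes were. Besides ST6GALNAC1, CSGALNACT1, which starts chondroitin sulfate chains, rose from 0.175 to 0.596 CPM up to 16.1 to 19 CPM (5.38, SE 0.33, adjusted p = 1.07e-25), and UAP1, which makes UDP-N-acetylglucosamine, rose by 1.93 (SE 0.03). The polysialyltransferase ST8SIA4 fell by 2.95 (SE 0.26), ST6GALNAC4 by 1.20 (SE 0.12) and GALNT14 by 1.18 (SE 0.35). GALNT14 was at 0.275 to 1.68 CPM, the compared groups overlapped, and the call was lost without replicate 3 of SNX631 or without replicate 3 of R1881 with SNX631.

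Signalling lists held calls in both directions. Of 35 interferon-stimulated genes tested 4 were called higher and 7 lower, and the share called higher was near the 10.1% of all genes (12.0% were called lower). Those called higher were led by B2M, the light chain of MHC class I (1.17, SE 0.03), and the ubiquitin-like ligase genes HERC5 (0.94, SE 0.14) and HERC6 (0.92, SE 0.14). The 7 called lower included UBE2L6 and the RNA sensors DDX58 and IFIH1, at -1.25, -1.17 and -1.16. Of 26 AP-1 and immediate early genes 5 were called higher and 4 lower: the zinc finger gene KLF4 (2.47, SE 0.19), the orphan receptor NR4A1 (2.26, SE 0.09) and the phosphatase DUSP2 (1.92, SE 0.06) rose, while NR4A2 and the MAP kinase phosphatases DUSP6 (-1.81, SE 0.50) and DUSP5 (-1.21, SE 0.13) fell. Of 20 Wnt feedback genes 4 were called higher, including the receptor FZD5 (1.47, SE 0.07) and TNFRSF19 (1.31, SE 0.08), and 6 lower, including LEF1, a partner of beta-catenin (-2.10, SE 0.09), and RNF43, a ligase that removes Wnt receptors (-1.55, SE 0.12). Of 13 neuroendocrine and neuronal genes 6 were called lower, among them SYT11 (-4.19, SE 1.12) and DDC, which makes dopamine and serotonin (-2.03, SE 0.04), and VGF, a neuropeptide precursor, was called higher (1.51, SE 0.21). SYT11 was at or under 1.02 CPM in every library of the 2 groups.

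The targets of the inhibitor were themselves androgen-responsive under it. CDK8 stood at 55.7, 49.5, 49.2 and 46.3 CPM with SNX631 alone and at 20.2, 23, 22.9 and 22.7 CPM with both agents (-1.17, SE 0.06, adjusted p = 8.83e-20). CDK19, its paralog, went from 317, 307, 319 and 304 CPM to 444, 459, 441 and 423 CPM, a change of 0.50 (SE 0.03) that was past the FDR limit and under the fold limit. MED12L rose by 0.97 (SE 0.14), from 3.61 to 4.9 CPM up to 6.67 to 9.43 CPM, where an antisense gene overlaps it and the use of strand in counting is not stated. The cyclin gene CCNC had a log2 change of 0.12 (SE 0.04, adjusted p = 0.0138), and MED12, MED13 and MED13L had -0.40, -0.48 and -0.33, all short of the fold limit. None of the 7 module genes had a called difference in effect between cells with and without SNX631, with estimates from -0.21 to 0.21. That is near the 1.19% of all genes tested with a called difference. The difference for CDK19, 0.14 (SE 0.04, adjusted p = 0.00745), was past the FDR limit and under the fold limit. Of the 26 other Mediator subunits 0 were called in either direction, where 22.0% of all genes tested were called, with log2 changes from -0.29 to 0.34.

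The effect of R1881 under SNX631 largely fell on genes it also moved without the inhibitor, where 19.8% of genes tested were called (9.7% higher and 10.1% lower), and the 2 comparisons share no library. Genes called in the same direction in both were 1306 higher and 1255 lower, which is 72.3% of the genes called under SNX631 and 80.4% of those called without it, and 0 were called in opposite directions. A gene called in only 1 of the comparisons need not differ between them. Of 982 genes called under SNX631 and not without it, 199 upward and 310 downward had an FDR under 0.01 in the same direction without it and missed on the fold, and the difference itself was called for 51. Of 624 called without the inhibitor and not under it, the difference was called for 35. The test of the difference called 1.19% of all genes, 0.373% larger and 0.821% smaller on the signed scale under SNX631.

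Among genes called in both comparisons the called differences ran mostly toward a weaker rise or a stronger fall. For genes higher in both, the rise was larger under SNX631 in 14 and smaller in 51; for genes lower in both, the fall was larger in 17 and smaller in 5. TUBA3D, an alpha-tubulin gene with the near-identical copy TUBA3E whose reads can be shared, ended at similar levels, 115, 119, 115 and 120 CPM with both agents and 115 ± 7.3 CPM with R1881 alone. It started higher under SNX631 (1.54 to 3.07 CPM) than in vehicle (0.56 ± 0.251 CPM), and its difference in effect was -1.80 (SE 0.34, adjusted p = 6.18e-05). PHLDB2, a membrane-binding protein gene, had the same form, with 5.53 to 8.13 CPM under SNX631 alone, 2.45 ± 0.597 CPM in vehicle and 24.3 ± 0.971 against 27.7 ± 1.46 CPM with R1881 (-1.58, SE 0.18, adjusted p = 6.94e-09). KLK3 and KLK2 differed at the other end, after androgen, as given above.

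SGK1, a kinase gene known to respond to steroid hormones, rose without the inhibitor and was not called under it. It stood at 2.97, 2.38, 2 and 1.53 CPM with SNX631 alone and at 2.56, 2.57, 2.89 and 3.15 CPM with both agents (0.33, SE 0.18, adjusted p = 0.106). Without SNX631 it went from 1.51 ± 0.287 to 5.45 ± 0.762 CPM, and the difference in effect was -1.5 (SE 0.27, adjusted p = 7.23e-05).

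Larger effects under SNX631 were seen in SOX9, CNTNAP3, HPGD, PRRT2 and TENM1. SOX9 stood at 1.92, 2.46, 2.4 and 2.21 CPM with SNX631 alone and at 16.7, 16, 16.1 and 17.6 CPM with both agents, against 3.23 ± 0.612 CPM in vehicle and 9.23 ± 1.46 CPM with R1881 alone. Its effect was 2.87 (SE 0.14) under SNX631 and 1.50 (SE 0.14) without it, a difference of 1.37 (SE 0.20, adjusted p = 2.99e-06). CNTNAP3, a neurexin-family gene, rose from 1.28 to 1.38 CPM up to 7.84 to 9.97 CPM, with a difference of 1.59 (SE 0.24, adjusted p = 5.75e-06). PRRT2, a presynaptic protein gene, and TENM1, a teneurin, had differences of 1.27 and 1.23 with SEs of 0.26 and 0.21. The difference for HPGD, 1.96 (SE 0.54, adjusted p = 0.00386), rests on 7 counts in all under SNX631 alone and was not called without replicate 1, 2 or 4 of SNX631 or replicate 2 of vehicle (adjusted p up to 0.0181).

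The 51 genes called under SNX631 and not without it, with the difference called, fell into 33 lower and 18 higher with R1881. A pair of the lower genes overlap on chromosome 16 with nearly the same level in every library. Their reads may be shared, and they are counted separately here. They were chosen for a called difference, which is built from the levels of the same 4 groups. The counts of levels below therefore largely follow from the choice and are a description. For the lower genes the mean with SNX631 alone was above vehicle in 26 of 33, against 8090 of all 16074 genes. The mean with both agents was below vehicle in 30. BMP6, a bone morphogenetic protein ligand, stood at 5.49 CPM in vehicle and 26.9, 25.8, 27.2 and 31.3 CPM with SNX631 alone, then at 8.46, 6.57, 7.63 and 6.3 CPM with both agents and 3.74 CPM with R1881 alone. Its R1881 effect was -1.94 (SE 0.09, adjusted p = 7.89e-22) under SNX631 and -0.56 (SE 0.15) without it. CEMIP2, a cell surface hyaluronidase gene, went from 98.9 to 105 CPM down to 33.3 to 38.7 CPM, against means of 72.7 and 58 CPM without the inhibitor. EBF2, a transcription factor gene, went from 5.33 to 7.6 CPM down to 1.93 to 2.64 CPM, against 2.7 and 3.17 CPM.

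For the 18 higher genes the mean with SNX631 alone was above vehicle in 0 and the mean with both agents was above R1881 alone in 18. Over all genes tested the counts were 8090 and 7889 of 16074, and the 18 were chosen on these same means. ARHGAP28, a GTPase-activating protein gene, stood at 10.8, 10.5, 10.4 and 10.5 CPM with SNX631 alone and at 39, 38.9, 40.2 and 34.1 CPM with both agents, against 18.3 and 26 CPM (means) without the inhibitor, with effects of 1.85 (SE 0.07) and 0.51 (SE 0.07). CA5B, a mitochondrial carbonic anhydrase gene whose reads can be shared with the copy CA5BP1, went from 5.84 to 7.83 CPM up to 14.2 to 15.8 CPM, against 9.06 and 10.1 CPM. TENT5C, a poly(A) polymerase gene, went from 2.97 to 4 CPM up to 7.75 to 10.2 CPM, against 4.23 and 6.25 CPM. Without the inhibitor its effect was 0.577 (SE 0.14, adjusted p = 0.000596), just short of the fold limit. ARHGAP28, BMP6 and CEMIP2 likewise passed the FDR limit in the same direction without the inhibitor and missed on the fold. CAMK2D, a subunit of calcium/calmodulin-dependent kinase II, went from 3.04 to 5.02 CPM up to 5.99 to 6.81 CPM, against 6.89 and 5.65 CPM, so that its mean with both agents stayed below vehicle, the only 1 of the 18 to do so. Its change of 0.63 (SE 0.13) fell under the fold limit without replicate 3 of SNX631. In the 24 h experiment with Senexin B, 23 of the 33 lower and 15 of the 17 higher genes tested there were called in the same direction. The share among all genes called under SNX631 at 72 h was 68.3% (2340 of 3426), so the count for the lower genes is near that of called genes in general.

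**Figure D4:**
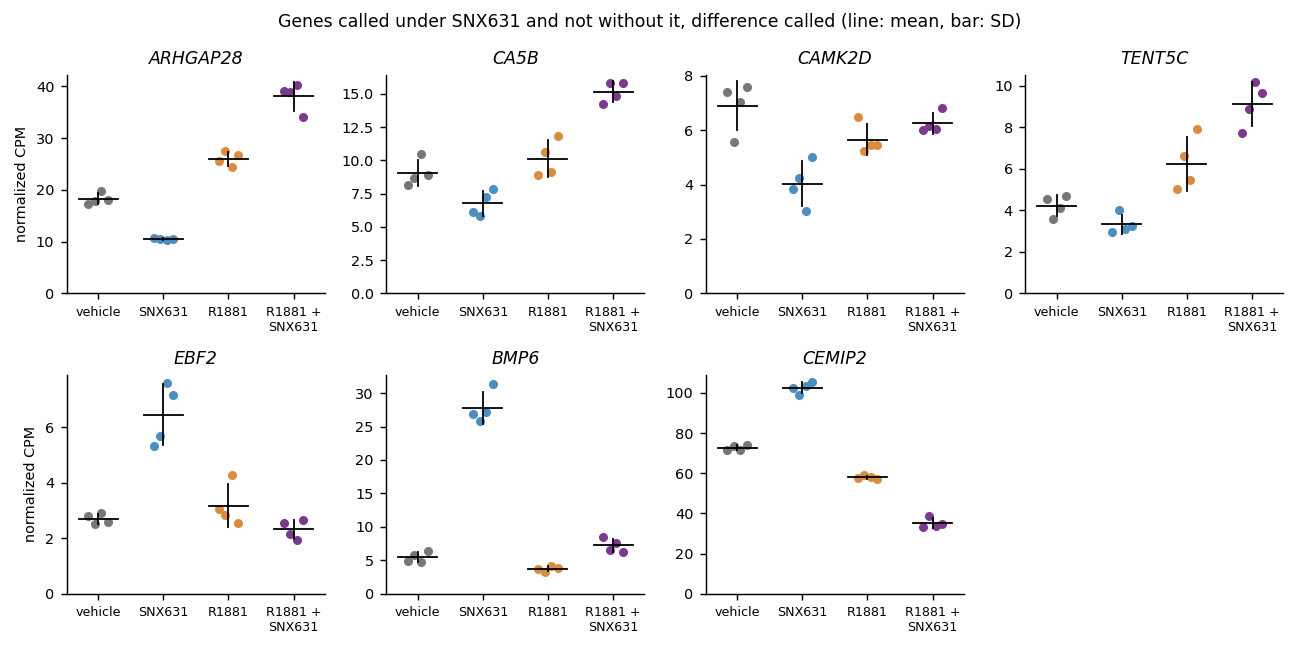
Normalized CPM on linear axes in the 4 groups at 72 h for 7 genes called under SNX631 and not without it, 4 with large positive differences (upper row) and 3 with large negative ones (lower row), with 1 point per library, a line at the mean and a bar of 1 SD. In the lower row the group with SNX631 alone is the highest, and in the upper row the group with both agents exceeds R1881 alone. ARHGAP28, TENT5C, BMP6 and CEMIP2 moved in the same direction without the inhibitor at an FDR under 0.01 and missed only the fold limit.

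The compared groups differed in depth: the totals were 11166420 to 12741548 counts with SNX631 alone and 13176514 to 15248512 with both agents, without overlap. With every library thinned to 9846595 counts 3335 genes were called. All 13 luminal prostate markers had a mean of at least 1 CPM over the 8 libraries, with summed levels of 3915 to 3973 CPM with SNX631 alone and 5678 to 5723 CPM with both agents. Of the other cell types looked for, 1 of 5 basal, 3 of 9 fibroblast and muscle, 1 of 5 endothelial and 0 of 8 leukocyte markers reached that mean, and KRT5, TP63, DES, CDH5, CLDN5, PTPRC, CD3E, MS4A1 and NKG7 had no count. The fibroblast and muscle sum was 33.8 to 36.8 CPM with SNX631 alone and 14.4 to 17.5 CPM with both agents, with 2 of its markers called lower. The endothelial sum was 0.351 to 1.31 CPM and then 2.52 to 3.26 CPM, with 1 marker called higher. No basal or leukocyte marker was called. The part of these markers in the other results was not tested.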

How the data were processed

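RNA-Seq counts of 28 LNCaP libraries were used, of which the 16 at 72 h entered the main fit. The authors deposited expected counts per gene for 61815 human genes, unscaled, and 16.9% of the nonzero values were not whole. Per the labels, reads were processed with cutadapt 2.8, STAR 2.7.2b and featureCounts of Subread 2.0.3 on GRCh38.p13 (GRCm39 is also named), while the annotation release and the use of strand are not given in the sources used here. The deposited expected counts were rounded to whole counts, and 2 added entries with 0 counts were left out. Totals at 72 h ran from 9846595 to 15248512 counts, and replicate pairs differed by more than sampling noise. The study's methods call the replicates biological, the labels do not say whether each was a separate culture, and p values measure the spread between these libraries.

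Genes were filtered (filterByExpr, minimum count 10 and minimum total 15), scaled by TMM and tested with the quasi-likelihood test of edgeR 4.0.16 in R 4.3.3, with the 4 groups in 1 fit, contrasts for R1881 with SNX631, without inhibitor and their difference, and Benjamini-Hochberg adjustment over 16074 genes. The SE is a Wald SE of the same fit. The 24 h experiment was fitted alone. On simulated counts for the R1881 effect under SNX631, 100% of 100 genes changed 2-fold and of 100 changed 4-fold among 16074 were recovered. The changed genes were drawn only from those with higher counts, and every gene had the same spread, so recovery of genes with low counts was not tested. A floor of 3 counts per library was used for folds against groups with no count, and ratios against 1 to 3 counts in all have a Clopper-Pearson interval. Positions are from GENCODE 29, promoters from RefSeq.

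Alternatives were other scalings and filters, other limits, DESeq2 1.42.0, a replicate block, other sets of libraries and leaving out each library. Thinning was chosen after seeing the data. Same-numbered libraries were checked for shared deviations. Members, lists and tests were chosen with earlier results of these data known. Genes were named by rule: KLK3, KLK2, CHRNA2 and the kinase module; the 10 highest and 10 lowest log2 fold changes with at least 5 CPM in the higher group; the 6 highest and lowest differences, and the 4 highest and lowest among genes called under SNX631 and not without it, with at least 5 CPM in the highest of the 4 groups; the 5 largest gains and losses in CPM; the 3 highest and 3 lowest called members of each list; and list members of known role. Some items are not reported here, which left 101 named genes. TSC22D3 was named after its values were seen.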

Additional observations from a re-analysis of the deposited data

Results flagged for a closer look

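In 10 of 202 groups of 4 libraries examined for the named genes, 1 library stood apart from the other 3 by Dixon's 95% limit, which chance passes in about 1 of 20 groups. Of these, 5 were in replicate 4 of R1881 with SNX631, which also stood apart from its group over all genes, and without it the R1881 effect on those 5 genes kept its direction and its side of the limits. In R1881 with SNX631, replicate 4 stood apart for MED13 (107 CPM, others 122 to 125), MOGAT2 (14.3 CPM, others 10.8 to 11.1), NRP1 (194 CPM, others 210.1 to 212), E2F1 (75.3 CPM, others 69.2 to 69.9) and MLXIPL (1.03 CPM, others 1.86 to 2.08). Replicate 1 of that group stood apart for CDK8 (20.2 CPM, others 22.7 to 23) and DUSP5 (2.32 CPM, others 3.57 to 3.74), and replicate 3 for CHRNA2 (39 CPM, others 36.8 to 37). With SNX631 alone, replicate 4 stood apart for ABHD2 (286 CPM, others 257 to 259), and replicate 3 for UBE2L6 (3.6 CPM, others 2.89 to 2.98).

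The R1881 effect differed with and without SNX631 by the edgeR interaction test for 25 of the named genes. The effect was larger or less negative under SNX631, on the log2 scale, for HPGD (1.96), CNTNAP3 (1.59), SOX9 (1.37), ARHGAP28 (1.34), PRRT2 (1.27), TENM1 (1.23), CA5B (1.00), CAMK2D (0.93), TENT5C (0.87), DDC (0.60) and NR4A1 (0.59). It was smaller or more negative for TUBA3D (-1.80), KLK2 (-1.78), EBF2 (-1.71), PHLDB2 (-1.58), KLK3 (-1.53), SGK1 (-1.5), BMP6 (-1.38), CEMIP2 (-1.22), LEF1 (-0.81), HERC5 (-0.75), CDC45 (-0.75), FZD5 (-0.70), KIF20A (-0.67) and ELOVL7 (-0.64). Calls close to a limit depended on single libraries: DDC was lost without replicate 2 or 3 of R1881, HERC5 without replicate 2 of vehicle or replicate 3 or 4 of SNX631, and NR4A1 without replicate 2 of vehicle, replicate 1 of SNX631, replicate 1 or 4 of R1881 or replicate 3 of R1881 with SNX631. Without those libraries the difference was 0.58 or 0.57 for DDC, -0.72 to -0.69 for HERC5 and 0.51 to 0.57 for NR4A1.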

How the results depend on the processing

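The R1881 effect under SNX631 gave 3543 called genes (1619 higher, 1924 lower), and leaving out each library gave 3429 to 3587 (1588 to 1637 higher, 1814 to 1951 lower). The difference gave 192 (60 larger, 132 smaller) and 166 to 201 (50 to 65, 110 to 139), and the 51 genes called under SNX631 and not without it, difference called, became 45 to 51. With an FDR under 0.05 and no fold limit the counts were 10562 (5330 higher, 5232 lower), 2034 (893 larger, 1141 smaller) and 370. A test against a fold of 1.5 at an FDR under 0.05 gave 1222 genes higher and 1157 lower, so that more were higher than lower, and 24 differences (6 larger, 18 smaller) and 10 genes called under SNX631 and not without it. These limits are looser and stricter by construction. Other scalings, filters, DESeq2, thinning and other sets of libraries kept these counts within 1.5 times. Of 2723 values of the R1881 effect for named genes under the alternatives 0 changed direction and 15, of 4 genes (CAMK2D, GALNT14, MLXIPL and SRM), were no longer called. Same-numbered libraries of different groups correlated at -0.07 to 0.07 in their deviations, and 2 of 16 correlated best with their own number, so the numbers name libraries only; with the replicate block 3529 genes were called (1621 higher, 1908 lower), 188 differences and 49 genes called under SNX631 and not without it. Depth sets a floor of 3 counts, or 0.197 to 0.305 CPM at 72 h before scaling.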

Other observations

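Transcript classes, taken from GENCODE 29, were called in different proportions. Of 1850 long non-coding genes tested, 103 were called higher (5.57%) and 401 lower (21.7%) with R1881 under SNX631, and of 12812 protein-coding genes 1407 were called higher (11%) and 1323 lower (10.3%). Pseudogenes, whose reads can be shared with their parent genes, had 41 called higher and 99 lower of 725. The difference in direction between the classes was not tested.

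Of the genes called under SNX631 at 72 h and tested in the 24 h experiment, 2340 of 3426 (68.3%) were called in the same direction for R1881 under Senexin B, which is 79.3% of the 2949 genes called there, and 1 was called in the opposite direction. Time, dose, inhibitor and experiment differ together and cannot be told apart.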
